A study of Mus musculus with 36 samples.

Results

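DNA methylation of C2C12 myotubes was compared between cells that had received electrical pulse stimulation (EPS) and unstimulated control cells, all taken at 240 min, the last harvest of a time series that started as stimulation ended. The comparison holds 3 EPS samples and 3 control samples, 6 of the 36 samples of the series, chosen by their labels for treatment and time. The other 30 samples are 3 controls and 3 EPS samples at each of 0, 30, 60, 120 and 180 min. C2C12 is a mouse myoblast line from skeletal muscle, so all samples share 1 genotype. Their labels differ in treatment, time and replicate number. All cells were turned into myotubes in low-serum medium, and the control cells at 240 min received no pulses. The cultures stand for muscle fibres without nerve, blood or a second cell type. The study describes its bisulfite data as coming from independent experiments, and the labels do not say which samples share one. The p-values below set group differences against the spread between samples. The fits across blocks or sites (limma) take that spread from all 36 samples. No transcript was measured in these libraries, so markers of muscle could not be read.

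Bisulfite turns unmethylated cytosine into uracil, which is read as thymine, whereas methylated cytosine is still read as cytosine. The share of reads with cytosine at a position gives the methylation level. The values used throughout are the deposited percents. Whether each is the plain share at its own position is not given in the sources used here, since neighbouring values are nearly alike. Hydroxymethylated cytosine is also read as cytosine and cannot be told apart from methylated cytosine by this assay. Methylation at promoters of active genes is usually low, and TET enzymes can start the removal of methyl groups by oxidising them, without DNA replication. Electrical pulses make myotubes contract, and the question put to the 240 min samples was whether methylation near 3 genes linked to exercise differed from that of resting cells.

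Nr4a3 encodes an orphan nuclear receptor of the NR4A family, an immediate early transcription factor that is induced by exercise in muscle. Ccnd1 encodes cyclin D1, which drives cells from G1 into S phase with its kinase partners and which falls when myoblasts leave the cell cycle. Ppard encodes PPAR delta, a nuclear receptor for fatty acids that raises fat oxidation in muscle fibres.

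The deposited table lists 171 cytosines near the 3 genes, of which 117 had a value in all 36 samples. They fell into 5 blocks, a block being a run of listed cytosines no more than 200 bp apart. Of the 117 sites, 87 are CpG, 28 CHG and 2 CHH, where H is any base but G. All positions are on the GRCm38 (mm10) build. The Nr4a3 distal block holds 38 sites at chr4:48042827-48043103, -2326 to -2050 bp from the transcription start site (TSS), where no gene is annotated. The Ccnd1 near block holds 16 sites at chr7:144940258-144940435 and the Ccnd1 far block holds 43 sites at chr7:144941129-144941512. Their listed distances are 389 to 566 bp and 1260 to 1643 bp, given as genome coordinate minus TSS. Since Ccnd1 lies on the minus strand, both Ccnd1 blocks are upstream of the gene, outside any annotated gene. The Ppard promoter block holds 12 complete sites at chr17:28232454-28232627, -300 to -127 bp, upstream of the gene. The Ppard intron block holds 8 sites at chr17:28233460-28233606, 706 to 852 bp, within an intron of Ppard.

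The sequences of the blocks are shown because every value below belongs to one of their cytosines. They were read from the RefSeq copy of GRCm38, 5′ to 3′, and capitals mark the listed cytosines that had a value in every sample. Nr4a3 and Ppard are on the plus strand. Ccnd1 is on the minus strand, so its largest listed distance comes first, and of the Ccnd1 far block only the 234 bp amplified by the primer pair (chr7:144941274-144941507, 29 of its 43 sites) are given.
Nr4a3 distal: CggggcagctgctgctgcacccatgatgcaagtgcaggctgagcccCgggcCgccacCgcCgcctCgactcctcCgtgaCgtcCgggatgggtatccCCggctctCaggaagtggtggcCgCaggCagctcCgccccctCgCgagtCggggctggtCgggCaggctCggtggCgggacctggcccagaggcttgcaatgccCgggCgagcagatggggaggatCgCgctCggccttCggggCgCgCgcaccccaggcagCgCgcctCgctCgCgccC
Ccnd1 near: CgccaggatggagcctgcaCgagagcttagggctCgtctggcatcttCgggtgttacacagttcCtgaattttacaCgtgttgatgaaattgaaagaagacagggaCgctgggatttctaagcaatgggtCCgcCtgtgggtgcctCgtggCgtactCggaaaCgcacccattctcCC
Ccnd1 far: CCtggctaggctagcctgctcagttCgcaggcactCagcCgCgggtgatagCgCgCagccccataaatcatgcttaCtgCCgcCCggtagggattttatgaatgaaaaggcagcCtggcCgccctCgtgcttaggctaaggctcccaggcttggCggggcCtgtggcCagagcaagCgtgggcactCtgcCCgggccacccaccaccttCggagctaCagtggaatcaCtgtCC
Ppard promoter: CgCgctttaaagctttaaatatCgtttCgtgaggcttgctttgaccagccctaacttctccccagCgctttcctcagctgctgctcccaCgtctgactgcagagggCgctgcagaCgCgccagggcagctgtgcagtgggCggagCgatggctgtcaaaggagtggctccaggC
Ppard intron: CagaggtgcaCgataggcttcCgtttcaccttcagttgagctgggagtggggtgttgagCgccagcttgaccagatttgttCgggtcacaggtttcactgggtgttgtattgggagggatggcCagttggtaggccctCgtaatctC

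At 240 min the mean methylation of none of the 5 blocks separated EPS from control samples: the groups overlapped in each block. Mean levels were low everywhere, from 1.61% in Nr4a3 to 4.92% in the Ppard intron in control cells. The mean over the sites was lower after EPS in the Nr4a3 distal block, the Ccnd1 near block and the Ppard promoter, and almost the same in the Ccnd1 far block and the Ppard intron. No difference passed the two-sided exact permutation test, whose smallest possible p with 3 against 3 samples is 0.1, so that it cannot go below 0.05. A fit across blocks or sites (limma) has no such floor and called nothing either.

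**Figure D1:**
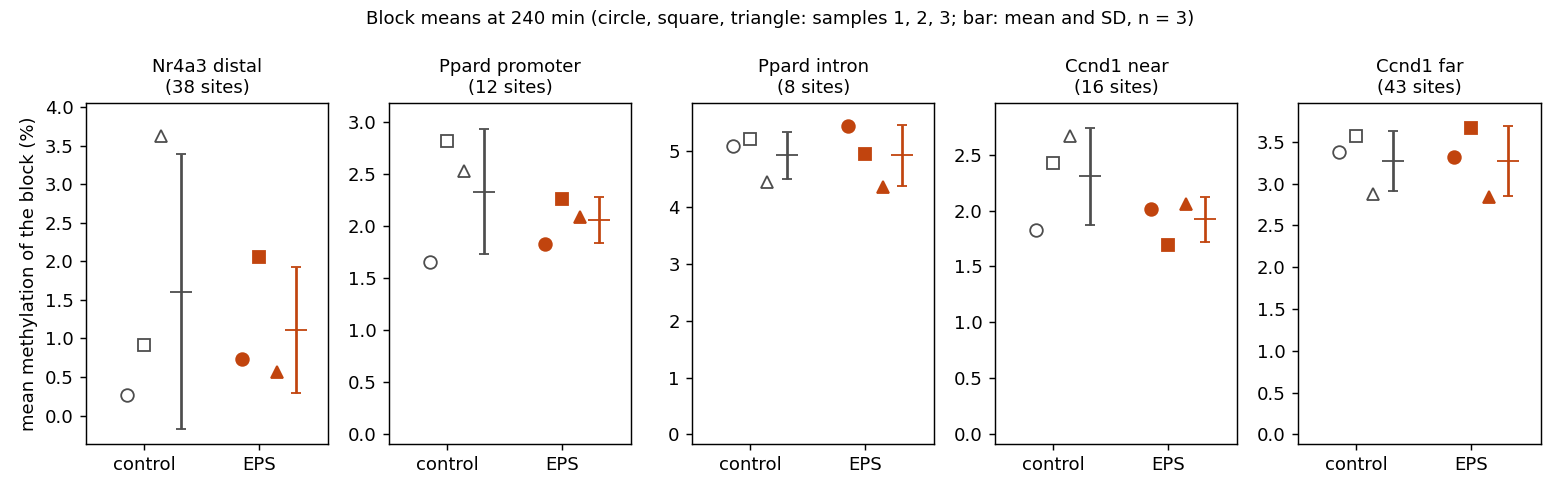
Mean methylation (%) of each block at 240 min in the 3 control samples (open grey) and the 3 EPS samples (filled orange), with circles, squares and triangles for samples 1, 2 and 3 and a bar for the mean and SD. In every panel the orange points lie within or across the range of the grey points, and the control samples of Nr4a3 spread from 0.271% to 3.63%.

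The Nr4a3 distal block had the widest spread. Its mean over 38 sites was 0.271% in control sample 1, 0.920% in control sample 2 and 3.63% in control sample 3. It was 0.732% in EPS sample 1, 2.05% in EPS sample 2 and 0.559% in EPS sample 3. Control samples 1 and 3 were the lowest and the highest of the 6, and all EPS samples lay between them. Control cells averaged 1.61% ± 1.78 and EPS cells 1.11% ± 0.815 (SD, n = 3), and their means differed by -0.49 percentage points (exact permutation p = 0.8).

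Most of this spread sat in 6 neighbouring CpG sites at the end of the block, -2067 to -2050 bp, which lie outside the primer pair as matched to the reference. These 6 of 38 sites made up 69.6% and 88.1% of the block's summed percent in control samples 2 and 3, and 57.2%, 84.6% and 50.5% in EPS samples 1, 2 and 3. Control sample 1 was listed at 0 at all of them. At -2056 bp, the site with the largest difference of means in the block, control samples 1 to 3 were listed at 0, 3.79% and 19.7%. EPS samples 1 to 3 were listed there at 2.39%, 10.4% and 1.62%. The difference of means was -3.03 percentage points, whereas the limma estimate on the log2 scale was 0.76 with a 95% interval from -4.45 to 5.97 (adjusted p = 0.949). The signs differ because control sample 1, at 0, weighs more on the log scale and control sample 3 weighs more in percent. The last site of the block, at -2050 bp, had the same order of samples, from 0 in control sample 1 to 15.1% in control sample 3.

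Without control sample 3 the block difference turned to 0.518 percentage points, and without control sample 1 it was -1.16. With the 6 end sites left out, an alternative chosen after seeing the data, the difference shrank to -0.03 percentage points (exact permutation p = 0.9). The size of the Nr4a3 difference thus rested on the 6 end sites. Of the 6 samples left out in turn, only control sample 3 turned the direction of the block mean difference in percent. With all samples kept, the direction also turned with the median over sites (0.0188) and with sites between the primers (0.0153). It turned as well with the mean of the log2 values of the sites (0.14). The limma estimate on the log2 value of the block mean kept the direction, at -0.04.

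Between the primers the Nr4a3 distal block was nearly free of spread. The mean of its 22 sites there was 0.302%, 0.268% and 0.269% in control samples 1 to 3 and 0.314%, 0.281% and 0.289% in EPS samples 1 to 3. EPS samples 2 and 3 lay between the control values, so the groups overlapped. EPS cells were higher by 0.0153 percentage points (exact permutation p = 0.4), a ratio of 1.05, and the group means were higher in EPS cells at 22 of 22 sites. With each sample left out in turn, this difference ran from 0.0055 (without EPS sample 1) to 0.0264 percentage points (without control sample 1). Neighbouring sites are not separate observations: over the 6 samples, the correlation between adjacent sites of a block had a median of 0.994 across 112 pairs. The CpG and the non-CpG cytosines of this stretch were listed at like levels, 0.282% and 0.273% in control and 0.296% and 0.289% in EPS cells. The site with the smallest p of the block, at -2207 bp, was at 0.292%, 0.263% and 0.25% in control and 0.305%, 0.274% and 0.282% in EPS samples. Its log2 difference was 0.10 ± 0.10 (SE, adjusted p = 0.949). Set against all 18 controls of the series, the difference of means at this site was -0.0085 percentage points in place of 0.0187. The first site, at -2326 bp, lies just outside the primer pair. It was at 0.322% ± 0.025 in control and 0.341% ± 0.0292 in EPS cells (SD, n = 3).

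The 9 sites from -2125 to -2081 bp, on the way from the flat stretch to the end sites, also lie outside the primer pair. They were all lower on average in EPS cells. Their mean was 0.369%, 0.495% and 1.12% in control samples and 0.512%, 0.612% and 0.426% in EPS samples. Control sample 3 alone stood above the rest, and without it the difference changed from -0.146 to 0.0848 percentage points.

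**Figure D2:**
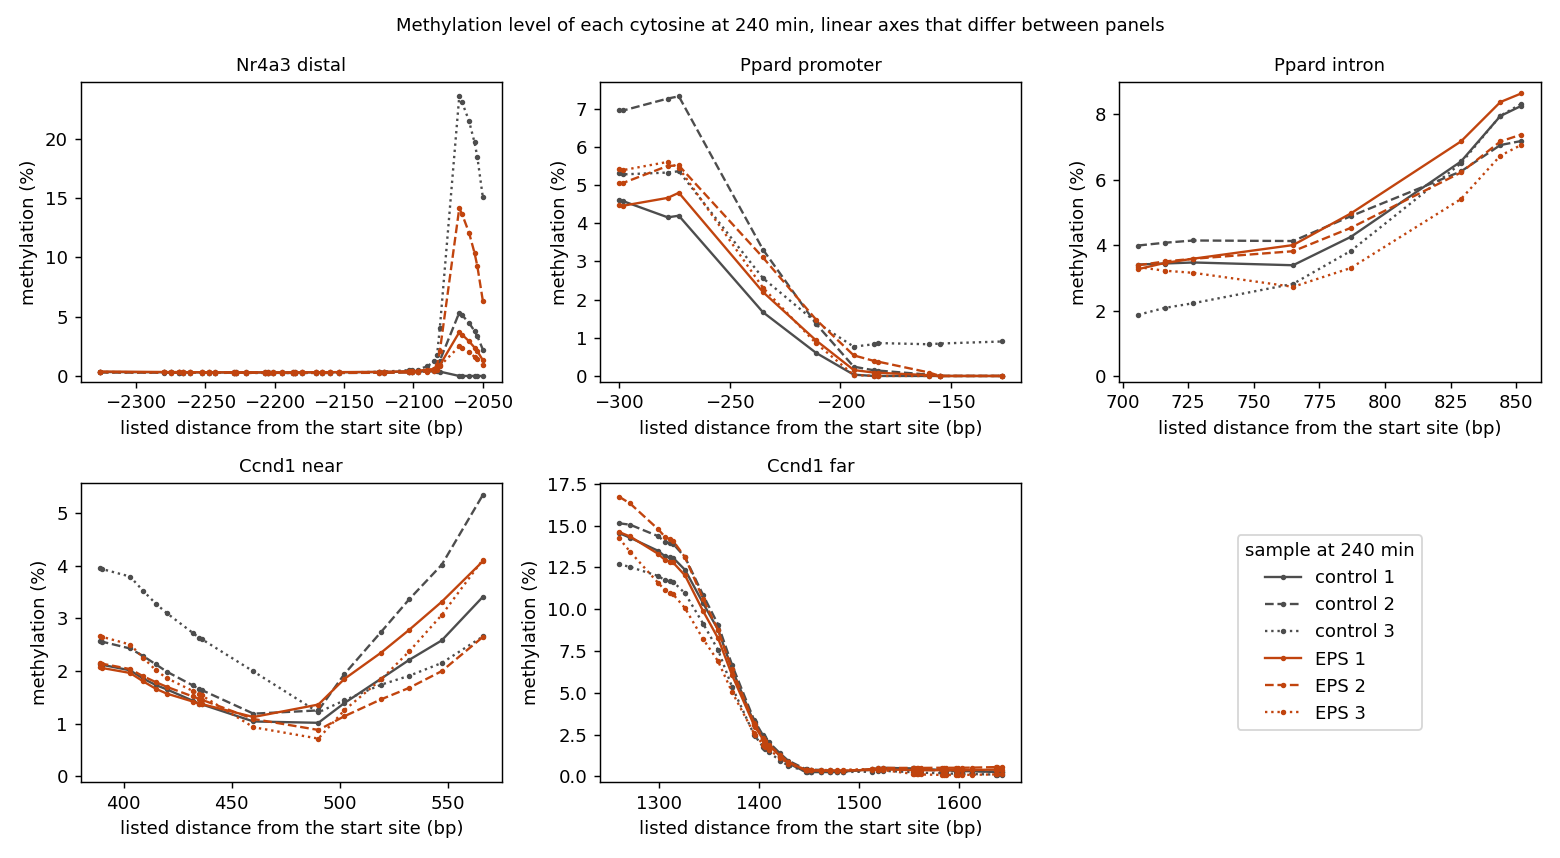
Methylation (%) of every cytosine at 240 min against its listed distance from the TSS (bp), 1 line per sample (grey control, orange EPS; solid, dashed and dotted for samples 1, 2 and 3), with a linear axis of its own in each panel. The curves of both groups overlap and cross in each block. In Nr4a3 the 6 end sites reach up to 23.6% in control sample 3 and 14.1% in EPS sample 2, whereas control sample 1 is at 0 there.

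The Ccnd1 near block had the smallest exact p of the 5, and it did not pass. Its mean over 16 sites was 1.82%, 2.43% and 2.66% in control samples 1 to 3 and 2.01%, 1.69% and 2.06% in EPS samples 1 to 3. Control samples 2 and 3 were above all EPS samples and control sample 1 lay among them. Control cells averaged 2.30% ± 0.433 and EPS cells 1.92% ± 0.20 (SD, n = 3), and their means differed by -0.38 percentage points and a ratio of 0.833 (exact permutation p = 0.3). The mean was lower in EPS cells at 16 of 16 sites, by 0.125 to 0.589 percentage points. With all 18 controls of the series as reference the difference was -0.06 percentage points, and at the site at 389 bp it was 0.0195 in place of -0.589. CpG and non-CpG sites of the block differed alike, by -0.378 percentage points over 12 sites and -0.406 over 4 sites. Adjacent sites of either kind were listed at nearly the same level, such as 2.88% at 389 bp (CpG) and 2.87% at 390 bp (CHG) in control cells. The 2 kinds are therefore not separate observations.

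Within the Ccnd1 near block the level was lowest in the middle and higher at both ends, in each of the 6 samples. At the first site, 389 bp, which had the largest difference, control samples were at 2.13%, 2.57% and 3.95% and EPS samples at 2.07%, 2.15% and 2.66%. At 460 bp, the site with the smallest p, control samples were at 1.04%, 1.19% and 1.99% and EPS samples at 1.13%, 1.09% and 0.932%. Its log2 difference was -0.38 with a 95% interval from -1.74 to 0.99 (adjusted p = 0.949). At the last site, 566 bp, control samples were at 3.41%, 5.34% and 2.65% and EPS samples at 4.08%, 2.65% and 4.11%. Control sample 3 was the highest of the 6 at 389 bp, and control sample 2 was the highest at 566 bp. Over the 10 sites from 389 to 460 bp EPS cells were at -0.505 percentage points relative to control, and at -0.069 once control sample 3 was left out. Over the 6 sites from 490 to 566 bp this value was -0.185, and it turned to 0.197 once control sample 2 was left out. It also turned, to 0.0788, once EPS sample 2 was left out.

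In the Ccnd1 far block the group means all but coincided. Its mean over 43 sites was 3.38%, 3.57% and 2.88% in control samples 1 to 3 and 3.32%, 3.67% and 2.84% in EPS samples 1 to 3. Sample 3 was the lowest and sample 2 the highest in both groups. Control cells averaged 3.27% ± 0.355 and EPS cells 3.28% ± 0.418 (SD, n = 3), and their means differed by 0.0026 percentage points (exact permutation p = 1). EPS cells were higher on average at 24 sites and lower at 19.

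The listed values of the Ccnd1 far block were higher at its end nearer the gene than at the other end, in both groups. The higher values lie at sites outside the primer pair, and the sources used here do not say which reads gave them. At 1260 bp, the first site and the one with the largest difference, control samples were at 14.6%, 15.1% and 12.7% and EPS samples at 14.6%, 16.7% and 14.2%. The difference there was 1.07 percentage points, with a log2 difference of 0.12 ± 0.11 (SE, adjusted p = 0.949). It was 0.304 percentage points without EPS sample 2 and 0.354 without control sample 3. The 13 sites from 1260 to 1404 bp, all outside the primer pair, averaged 9.62% ± 0.920 in control and 9.55% ± 1.10 in EPS cells. The 23 sites between the primers averaged 0.345% ± 0.0801 and 0.373% ± 0.109, a difference of 0.0281 percentage points (exact permutation p = 0.7). This difference turned to -0.0178 without control sample 3 and to -0.0214 without EPS sample 2, and it was 0.0862 without EPS sample 3. At the last site, 1643 bp, control samples were at 0.25%, 0.287% and 0.102% and EPS samples at 0.411%, 0.556% and 0.123%. This site also lies outside the primer pair. EPS samples 1 and 2 were the highest of the 6 there and EPS sample 3 lay among the control samples. The difference at 1643 bp was 0.15 percentage points, between 0.0536 and 0.27 with each sample left out in turn. With all 18 controls of the series as reference it was 4.0e-06 percentage points.

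The 5 sites with the smallest limma p of all 117 lay next to each other in the Ccnd1 far block, at 1448, 1452, 1462, 1471 and 1478 bp, between the primers. At 1471 bp, the smallest, control samples were at 0.26%, 0.352% and 0.265% and EPS samples at 0.345%, 0.338% and 0.382%. Control sample 2 lay within the EPS range and control samples 1 and 3 lay below it. The log2 difference was 0.29 with a 95% interval from -0.10 to 0.69 (unadjusted p = 0.14, limma adjusted p = 0.949). The other 4 had log2 differences from 0.22 to 0.32 with the same adjusted p. At 1478 bp control samples were at 0.268%, 0.331% and 0.26% and EPS samples at 0.345%, 0.331% and 0.389%, so that control sample 2 and EPS sample 2 all but met.

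The 7 sites from 1447 to 1484 bp, a stretch picked after its values were seen, averaged 0.264%, 0.375% and 0.277% in control and 0.352%, 0.351% and 0.382% in EPS samples. The EPS samples were close together and control sample 2 was as high as they were. The difference was 0.0563 percentage points, between 0.0355 and 0.0912 with each sample left out in turn. Set against all 18 controls of the series, the difference at 1471 bp was 0.00862 percentage points in place of 0.0626. Control samples 1 and 3 at 240 min were below the mean of the 18 controls at this site.

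The Ppard promoter had a mean over 12 sites of 1.65%, 2.81% and 2.52% in control samples 1 to 3 and 1.82%, 2.26% and 2.09% in EPS samples 1 to 3. All EPS samples lay between control sample 1 and control sample 3. Control cells averaged 2.33% ± 0.604 and EPS cells 2.06% ± 0.220 (SD, n = 3), and their means differed by -0.27 percentage points (exact permutation p = 0.5). EPS cells were lower on average at 11 sites and higher at 1. Leaving out control sample 2 brought this to -0.03 percentage points, and leaving out control sample 1 to -0.61.

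Methylation at the Ppard promoter was lower nearer the start site. At -300 bp, the first site and the one with the largest difference, control samples were at 4.61%, 6.97% and 5.30% and EPS samples at 4.47%, 5.05% and 5.42%. Control sample 2 stood above all others there. At -160 bp, the site with the smallest p, control samples were at 0, 0.034% and 0.83% and EPS samples at 0.0204%, 0.0907% and 0. At -127 bp, the last site, control sample 3 was at 0.903% and the other 5 samples were listed at 0. This last site lies outside the primer pair. The log2 difference of -1.06 at this site (95% interval -3.70 to 1.57, adjusted p = 0.949) came from control sample 3 alone.

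The Ppard intron had the highest mean level of the 5 blocks, with equal group means to 3 digits. Its mean over 8 sites was 5.09%, 5.21% and 4.45% in control samples 1 to 3 and 5.43%, 4.95% and 4.37% in EPS samples 1 to 3. The highest and the lowest value were both EPS samples, and sample 3 was the lowest in each group. Control cells averaged 4.92% ± 0.411 and EPS cells 4.92% ± 0.533 (SD, n = 3), and their means differed by -0.0016 percentage points (exact permutation p = 1). At 706 bp, the first site, with the smallest p and the largest difference of the block, control samples were at 3.41%, 3.99% and 1.87% and EPS samples at 3.27%, 3.38% and 3.33%. Control sample 3 was the lowest of the 6, and without it the limma log2 difference changed from 0.18 to -0.15. This site lies within a primer as matched to the reference, as do 6 sites of the Ccnd1 far block, and the part of the primers in these values was not tested. The mean of the 3 non-CpG sites of the block was above that of its 5 CpG sites, although 706 bp, one of the former, was below each CpG site in both group means. The 2 means were 5.81% ± 0.255 against 4.38% ± 0.549 in control and 5.76% ± 0.553 against 4.41% ± 0.534 in EPS cells (SD, n = 3). Both group means rose along the block, and the other non-CpG sites, at 829 and 852 bp, lie at its high end. The CpG site between them, at 844 bp, was at 7.65% in control cells. Sequence context was not tested apart from position. At 852 bp, the last site, the level was 7.92% ± 0.639 in control and 7.69% ± 0.832 in EPS cells.

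Across all sites the limma fit, on log2(beta/(1-beta)) with beta the methylation as a fraction, called 0 of 117 sites at an adjusted p under 0.05 for EPS against control at 240 min (0%). No site had an unadjusted p under 0.05 either, and the smallest was 0.14. All 3 EPS samples were above all 3 controls at 2 of 117 sites (1.71%), namely 1478 and 1484 bp of Ccnd1, the latter named after its values were seen. At 0 of 117 sites were they all below (0%). At the other 5 harvests these counts ran from 0 to 9 above and from 0 to 3 below, and at 180 min both were 0. These counts at 240 min are therefore no more than a description of 2 adjacent sites, with a difference of 0.0685 percentage points at 1478 bp.

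**Figure D3:**
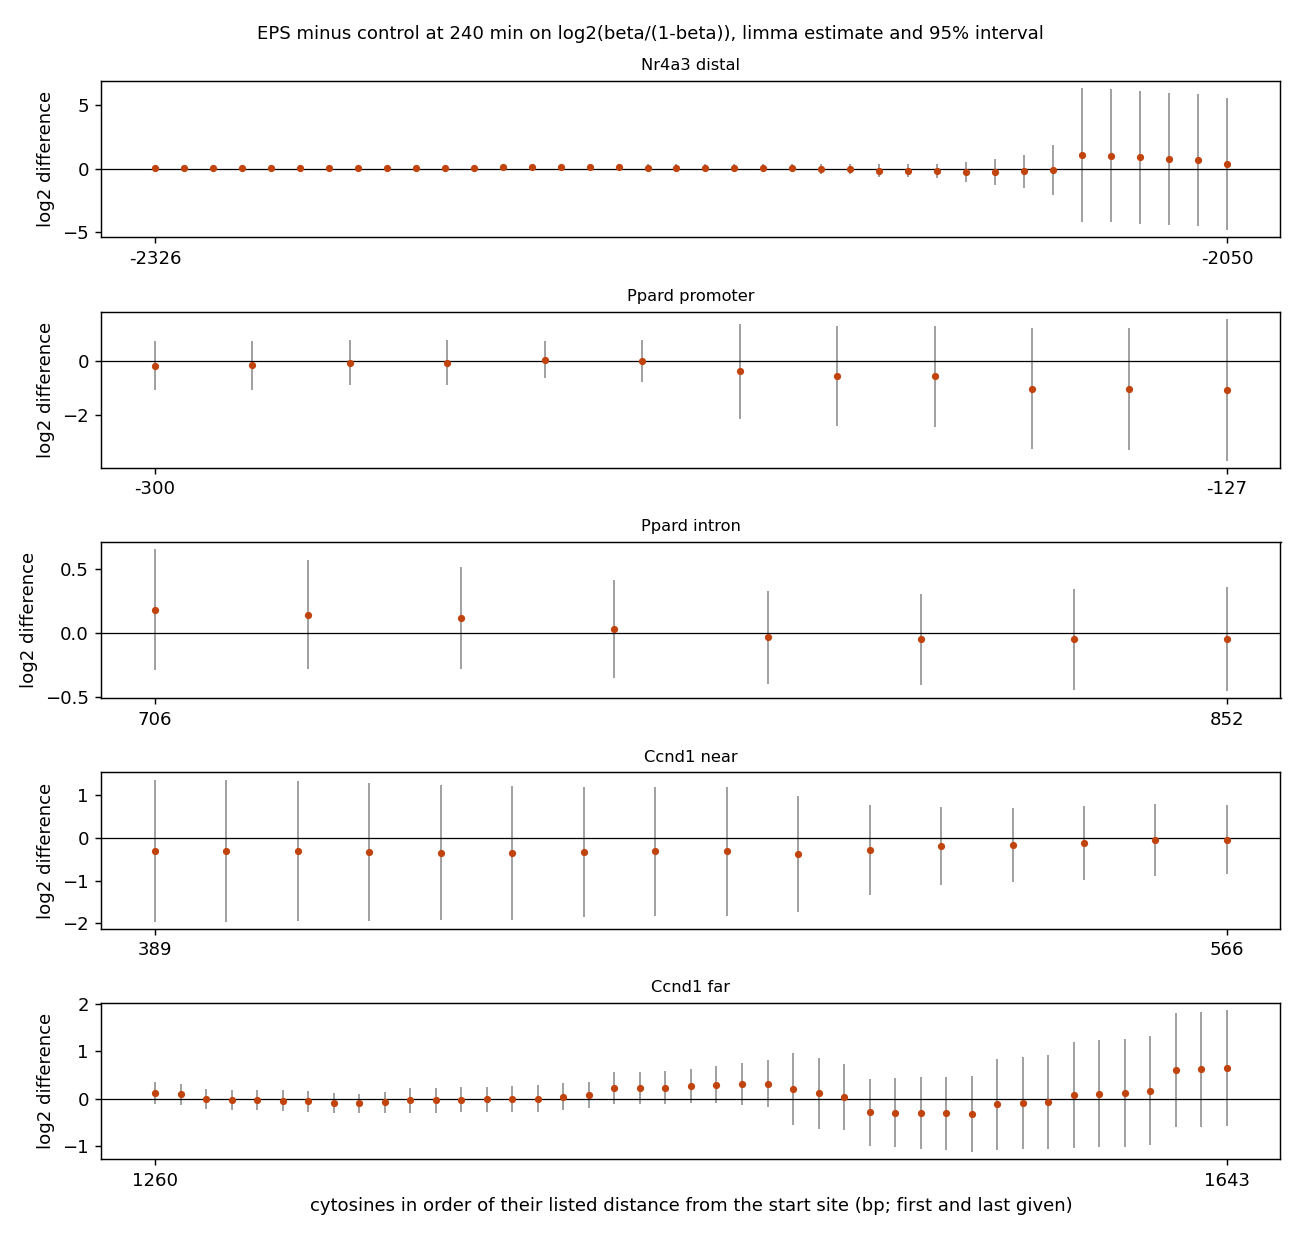
EPS minus control at 240 min for each of the 117 cytosines on log2(beta/(1-beta)), as the limma estimate (point) with its 95% interval (line), sites in order of their listed distance from the TSS with the first and last given in bp. Every interval crosses 0, and intervals are narrow in the flat stretch of Nr4a3 and in most of Ccnd1 far and widest at the 6 end sites of Nr4a3.

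The block differences were also given 95% intervals by limma, from a fit whose error was pooled over all 36 samples (24 residual degrees of freedom). These fits took the log2 value of each block mean, not the mean of the log2 values of its sites. On this scale the difference was 0.00 with a 95% interval from -0.21 to 0.20 in the Ccnd1 far block. It was 0.00 with an interval from -0.31 to 0.30 in the Ppard intron. It was -0.26 (-1.13 to 0.61) in the Ccnd1 near block, -0.15 (-0.97 to 0.66) in the Ppard promoter and -0.04 (-2.79 to 2.70) in the Nr4a3 distal block, and the limma adjusted p was 0.992 in all 5. In percent, the interval of the difference ran from -0.454 to 0.459 percentage points in Ccnd1 far and from -0.963 to 0.960 in the Ppard intron. It ran from -1.58 to 0.812 in Ccnd1 near, from -1.59 to 1.05 in the Ppard promoter and from -5.24 to 4.26 in Nr4a3 distal. Every interval held 0, and the data do not show that the groups are equal.

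The 240 min samples were also set against the earlier harvests. The EPS minus control difference at 240 min, less that at 180 min, came to -0.57 percentage points in Nr4a3 distal (exact permutation p = 0.695, from 400 exchanges of time labels within treatment). It was -0.33 in Ccnd1 near (exact permutation p = 0.395), -0.06 in Ccnd1 far (exact permutation p = 0.845), -0.82 in the Ppard promoter (exact permutation p = 0.28) and -0.17 in the Ppard intron (exact permutation p = 0.795). With its 6 end sites left out, an alternative chosen after seeing the data, Nr4a3 distal came to -0.0674 percentage points (exact permutation p = 0.38). Each harvest has its own controls, so the 240 min and 180 min differences share no sample. Against the mean effect of the other 5 times, limma called 0 of 117 sites (0%), none with an unadjusted p under 0.05, and the block fit gave an adjusted p of 0.958 in every block.

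Levels at 240 min stayed mostly within the range of unstimulated cells. In the Nr4a3 distal block the 15 controls of the other harvests spanned 0.256% to 12.3% with a median of 1.26%, and all 3 EPS samples at 240 min lay inside. The same held for the Ccnd1 near block (0.730% to 4.24%), the Ppard promoter (0.975% to 5.69%) and the Ppard intron (3.89% to 5.75%). In the Ccnd1 far block (3.02% to 3.67%), EPS sample 3 and control sample 3 at 240 min were both below that range. The absolute block difference of Ccnd1 far, of the Ppard promoter and of the Ppard intron was smaller at 240 min than at any other harvest, and that of Nr4a3 distal was the largest of the 6, by a small margin (-0.492 against -0.482 percentage points at 30 min).

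**Figure D4:**
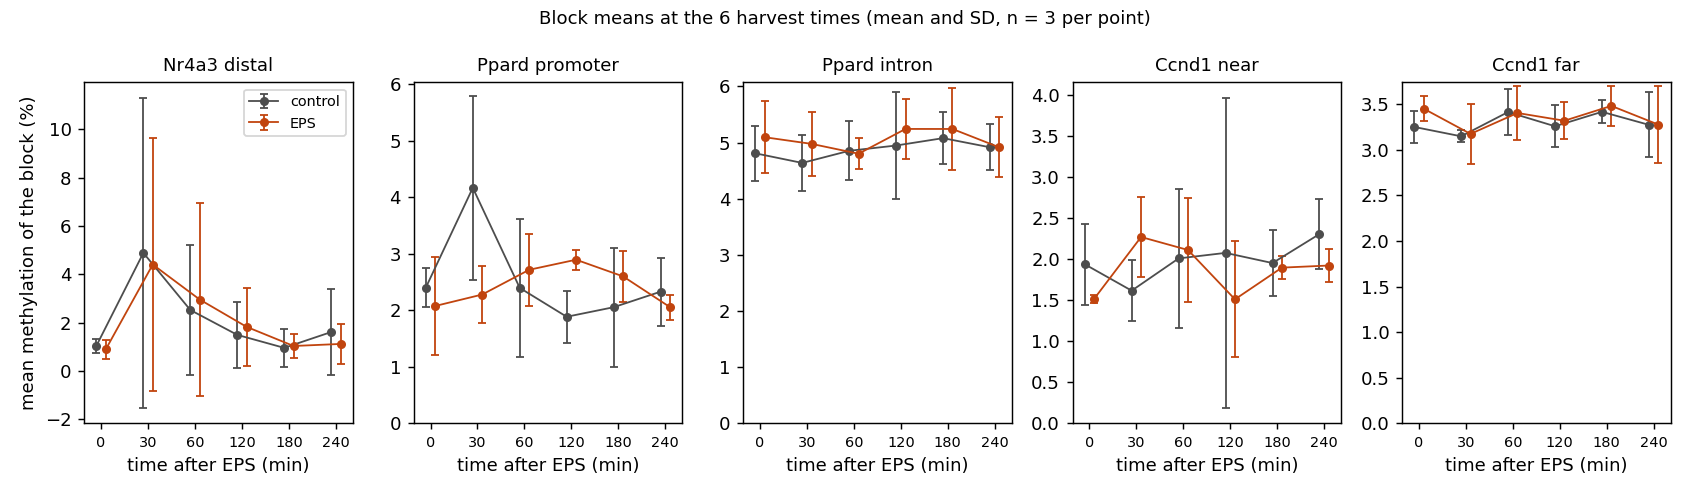
Mean methylation (%) of each block at the 6 harvest times (min after EPS), as the mean and SD of 3 control samples (grey) and 3 EPS samples (orange). At 240 min, the last point of each panel, the error bars overlap in every block, and the control means of the Ppard intron and Ccnd1 far are 4.92% and 3.27%.

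The remaining 54 listed cytosines were not complete and entered no test. Of the 23 in the proximal Nr4a3 block, -260 to -45 bp and next to the start site, 23 had a value in control sample 2 and in EPS sample 1, 9 in EPS sample 2 and none in the other 3 samples at 240 min. Every one of those values was listed at 0. Of the 31 Ppard cytosines from -1 to 252 bp, around and past the start site, EPS samples 1 and 3 had a value at 31 and EPS sample 2 at 28, all listed at 0, and no control sample had any. Which samples lacked values thus differed between the groups at the Ppard start site, and the methylation there could not be compared.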

How the data were processed

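Bisulfite-converted DNA of C2C12 myotubes was amplified with 1 multiplex of primers and sequenced. Per the submitters' processing notes, the authors used Trim Galore 0.3.7 and cutadapt 1.4.2 for trimming and Bismark on mm10 for mapping, and deposited the methylation of each listed cytosine in percent, without read counts. Depth and counting error are therefore unknown and no coverage minimum could be set. Values vary smoothly along each block, which can lower the spread at single sites, and no smoothing step is given in the sources used here. A deposited table of the authors' own p-values was not used, and 0 columns of per-sample values were left unmatched.

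Samples were grouped by their labels. Sites with a value in all 36 samples were kept, and block means were compared with two-sided exact permutation tests. limma 3.58.1 in R 4.3.3 was fitted with 12 group means (24 residual degrees of freedom) on log2(beta/(1-beta)), with beta held 0.001 from 0 and 1, and p-values were adjusted by the Benjamini-Hochberg method over 117 sites or 5 blocks. The limma fit was tested on simulated data and the exact tests on values with known answers. Python 3.11.15 was used elsewhere, and primers were matched to the reference to place sites. Sites were named where they were first or last in a block, had its smallest p or largest difference, or were among the 5 smallest p overall. Members, blocks and this rule were chosen with earlier results of these data known. The alternatives were other summaries, scales, site sets and controls, a replicate block and each sample left out.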

Additional observations from a re-analysis of the deposited data

How the results depend on the processing

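No alternative called a site at 240 min or for 240 min against the other times. At an unadjusted p under 0.05 the count at 240 min was 1 with the replicate block, 5 without control replicate 2, 3 without EPS replicate 3 and 0 in the other settings, and against the other times it was 3 without control replicate 2 and 0 in the others. The direction of block differences changed with the setting, the cause was not tested, and no adjusted p passed. In percentage points, the median over sites gave 0.0188 (Nr4a3 distal) and 0.0920 (Ppard intron), and for 240 against 180 min 0.0063 (Nr4a3 distal), 0.0702 (Ppard promoter) and 0.0221 (Ccnd1 far). Sites between primers gave 0.0153 (Nr4a3 distal), and against 180 min 0.0106 (Nr4a3 distal) and 0.0238 (Ccnd1 far). CpG sites alone gave 0.0291 (Ppard intron). The mean of the log2 values of the sites gave 0.14 (Nr4a3 distal) and 0.0358 (Ppard intron), and against 180 min 0.0454 (Ccnd1 far). Centred samples gave 0.238 (Ppard intron), and against 180 min 0.183 (Ppard intron), 0.0194 (Ccnd1 near) and 0.286 (Ccnd1 far). At 240 min they also gave, with the sign kept, -0.0338 (Ppard promoter), -0.145 (Ccnd1 near), -0.25 (Nr4a3 distal) and 0.242 (Ccnd1 far). Leaving out 2 sites at each end gave 0.0021 (Ppard intron) and -0.0515 (Ccnd1 far). All 18 controls as reference gave 0.0406 (Ppard intron), -0.0171 (Ccnd1 far), -0.0607 (Ccnd1 near), -0.967 (Nr4a3 distal) and -0.483 (Ppard promoter). Limma on the percent scale gave 0.0026 for Ccnd1 far. With beta held 0.01 from 0 and 1, the log2 difference was 0 at Nr4a3 -2207 bp, Ppard -160 bp and Ccnd1 1471 bp. All 6 values of each of these sites lie below that limit. The limma block estimate of Nr4a3 distal was then -0.28.

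With each sample left out, block differences ranged from -1.16 to 0.518 (Nr4a3 distal), -0.612 to -0.032 (Ppard promoter), -0.26 to 0.273 (Ppard intron), -0.625 to -0.205 (Ccnd1 near) and -0.195 to 0.222 (Ccnd1 far). Against 180 min they ranged from -1.24 to 0.441, -1.33 to -0.279, -0.533 to 0.198, -0.569 to -0.102 and -0.26 to 0.157. The limma block estimates ranged from -0.97 to 0.93, -0.39 to 0.0037, -0.0817 to 0.0839, -0.42 to -0.14 and -0.0938 to 0.10. Against 180 min, Ccnd1 far also turned to 0.083 without control replicate 2 at 240 min. It turned to 0.0095 without control replicate 3 at 180 min and to 0.0559 without EPS replicate 2 at 180 min. The Ppard intron turned to 0.109 without EPS replicate 3. At Ppard 706 bp the log2 difference ranged from -0.15 (without control replicate 3) to 0.41.

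Paired by number, with a replicate block, the mean differences equal the unpaired ones by construction (-0.49, -0.27, -0.0016, -0.38 and 0.0026, in the order above), and the sign-flip test cannot go below 0.25. Deviations of same-numbered samples correlated at 0.72, 0.42 and -0.13, and 3 of 6 samples correlated best with their own number. These correlations run over sites that are not separate observations, so they cannot decide whether the numbers mark shared experiments. The numbers were not taken as pairs, because the study compared the groups with an unpaired test. The unknown depth limits every value.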
